A study of Mus musculus with 3 samples.

Results

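The cytokine network genes described here are the interleukins, colony-stimulating factors, their receptors and the SOCS inhibitors, chosen by gene symbol from the table of KPC78 RNA levels. The symbols include the Il-numbered genes, Csf1 to Csf3 and their receptors, Lif, Osm, Clcf1, Crlf2, Tslp, Ebi3, Mif, Kit, Kitl, Socs1 to Socs7 and Cish. They number 111 of 35764 symbols. KPC78 is a mouse pancreatic ductal adenocarcinoma line whose genotype is labelled WT, sequenced in 3 libraries of 1 group, which the design text calls biological replicates. How the cultures were separated is not stated, and the group holds no treated or control sample. Values are TPM, a length-corrected share of transcripts that keeps no read depth, so comparisons are between genes inside a library and precision comes from the spread over the 3 libraries. The symbols fall into 49 ligands, 49 receptor chains, 4 soluble antagonists or binding proteins, 8 intracellular inhibitors and Il4i1, an amino acid oxidase named for its induction by interleukin-4.

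Cytokines are small secreted proteins. Many bind receptors of a private chain, which gives specificity, and a shared chain such as gp130 or the common gamma or beta chain. Most of these receptors carry JAK kinases that phosphorylate STAT transcription factors, whereas IL-1 and IL-17 receptors signal through adaptor proteins to NF-kappaB. The receptors for M-CSF, G-CSF and stem cell factor are listed here with 1 chain each. STAT factors induce SOCS genes, whose products bind the receptors or their kinases and dampen the signal. In pancreatic tumours IL-6 and LIF are studied as links between stroma and tumour cells, and GM-CSF and M-CSF as signals to myeloid cells.

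The libraries summed to between 999728 and 999776 TPM and were close, with Pearson's r of log2(TPM + 1) from 0.9971 to 0.9974 across all symbols, where genes are not independent replicates. Of 9 ductal and epithelial markers 7 were detected, which here means at or above 1 TPM in every library, led by Krt18, Krt19, Krt8 and Cdh1. Krt7, of the same list, stood at 0.623, 1.04 and 0.636 TPM in replicates 1 to 3 and was not detected. Epcam, a surface marker of epithelium, was not detected either, at 0.104 to 0.203 TPM. Of 14 leukocyte markers 1 was detected, the lipopolysaccharide co-receptor gene Cd14 at 92.2 to 97.3 TPM, which made up nearly the whole summed level of that list (92.7 to 97.8 TPM). The defining leukocyte genes were at or near 0, with Ptprc at 0.0328 to 0.0681 TPM, Itgam at 0.0145 to 0.0378 TPM, Cd3e above 0 only in replicate 2 and Nkg7, Itgax, Adgre1 and Cpa3 listed at 0 in every library. Of 8 fibroblast markers 2 were detected, Pdgfrb and Thy1, and the list summed to 41.8 to 52.0 TPM. None of 5 endothelial markers was detected (summed level 0.858 to 1.12 TPM), and of 5 acinar markers Prss2 was.

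Sequence windows around the start of 5 genes are given first, because they carry the contrasts described further on. Each is 300 bases of GRCm38.p6 from RefSeq, with 250 bases before and 50 from the annotated start, 5′ to 3′ on the gene's strand. In Cish (chr9:107296409-107296708, plus strand) and Socs3 (chr11:117969317-117969616, minus strand), genes known as STAT targets, capitals mark TTCNNNGAA, the palindrome bound by STAT dimers.
Cish: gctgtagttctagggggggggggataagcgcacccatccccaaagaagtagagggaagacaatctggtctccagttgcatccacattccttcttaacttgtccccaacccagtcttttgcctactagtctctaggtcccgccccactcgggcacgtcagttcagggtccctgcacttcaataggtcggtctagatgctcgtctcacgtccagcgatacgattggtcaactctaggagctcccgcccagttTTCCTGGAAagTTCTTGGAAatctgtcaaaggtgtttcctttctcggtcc
Socs3: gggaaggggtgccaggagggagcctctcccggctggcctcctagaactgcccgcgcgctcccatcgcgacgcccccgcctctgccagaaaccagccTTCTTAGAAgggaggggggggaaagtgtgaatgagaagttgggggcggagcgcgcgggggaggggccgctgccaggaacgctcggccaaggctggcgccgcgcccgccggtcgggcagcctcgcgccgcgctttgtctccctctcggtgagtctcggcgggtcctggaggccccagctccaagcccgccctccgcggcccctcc
In the receptor genes Il3ra (chr14:14346245-14346544, plus strand), Il5ra (chr6:106748988-106749287, minus strand) and Il18rap (chr1:40515112-40515411, plus strand), capitals mark CG dinucleotides.
Il3ra: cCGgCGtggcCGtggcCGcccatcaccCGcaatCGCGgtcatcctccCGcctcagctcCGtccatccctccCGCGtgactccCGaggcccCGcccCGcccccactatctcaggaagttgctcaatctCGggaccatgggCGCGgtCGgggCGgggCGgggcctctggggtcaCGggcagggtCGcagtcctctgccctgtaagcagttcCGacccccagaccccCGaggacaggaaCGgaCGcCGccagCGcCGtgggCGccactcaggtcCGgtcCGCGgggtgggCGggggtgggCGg
Il5ra: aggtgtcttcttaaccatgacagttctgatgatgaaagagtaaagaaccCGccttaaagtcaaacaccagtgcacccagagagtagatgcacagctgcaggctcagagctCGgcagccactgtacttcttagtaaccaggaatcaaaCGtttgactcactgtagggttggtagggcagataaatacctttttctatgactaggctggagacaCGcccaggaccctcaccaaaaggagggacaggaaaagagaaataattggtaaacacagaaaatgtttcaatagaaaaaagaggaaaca
Il18rap: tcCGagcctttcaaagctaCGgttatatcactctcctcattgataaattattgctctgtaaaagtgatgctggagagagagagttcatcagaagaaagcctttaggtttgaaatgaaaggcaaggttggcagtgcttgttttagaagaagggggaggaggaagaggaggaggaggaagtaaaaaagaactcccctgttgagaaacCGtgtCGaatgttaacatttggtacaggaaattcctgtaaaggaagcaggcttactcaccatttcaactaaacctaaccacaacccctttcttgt

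KPC78 cells expressed 41 of the 111 genes at or above 1 TPM in every library, or 36.9%. The same share was 32.6% over all symbols and 55.4% over the symbols that GENCODE M21 calls protein-coding. The classes differed: 8 of 8 SOCS genes, 22 of 49 receptor chains, 10 of 49 ligands and 1 of 4 soluble antagonists were detected. Of the 70 others, 25 were listed at 0 in every library, 19 of them ligands. Over all symbols 41.2% were listed at 0 in every library, and over protein-coding symbols 17.5%. In bulk RNA, fewer cells with a transcript and less of it per cell cannot be told apart. The median level of the detected genes was 10.8 TPM, against 22.9 TPM over all detected symbols, and 22 of the 111 genes had a mean of at least 10 TPM. That level was reached by 23.8% of all symbols and 41.4% of protein-coding symbols. Summed, the genes reached 1918 ± 85.1 TPM (SD, n = 3), of which Mif alone made up 45.1%.

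**Figure D1:**
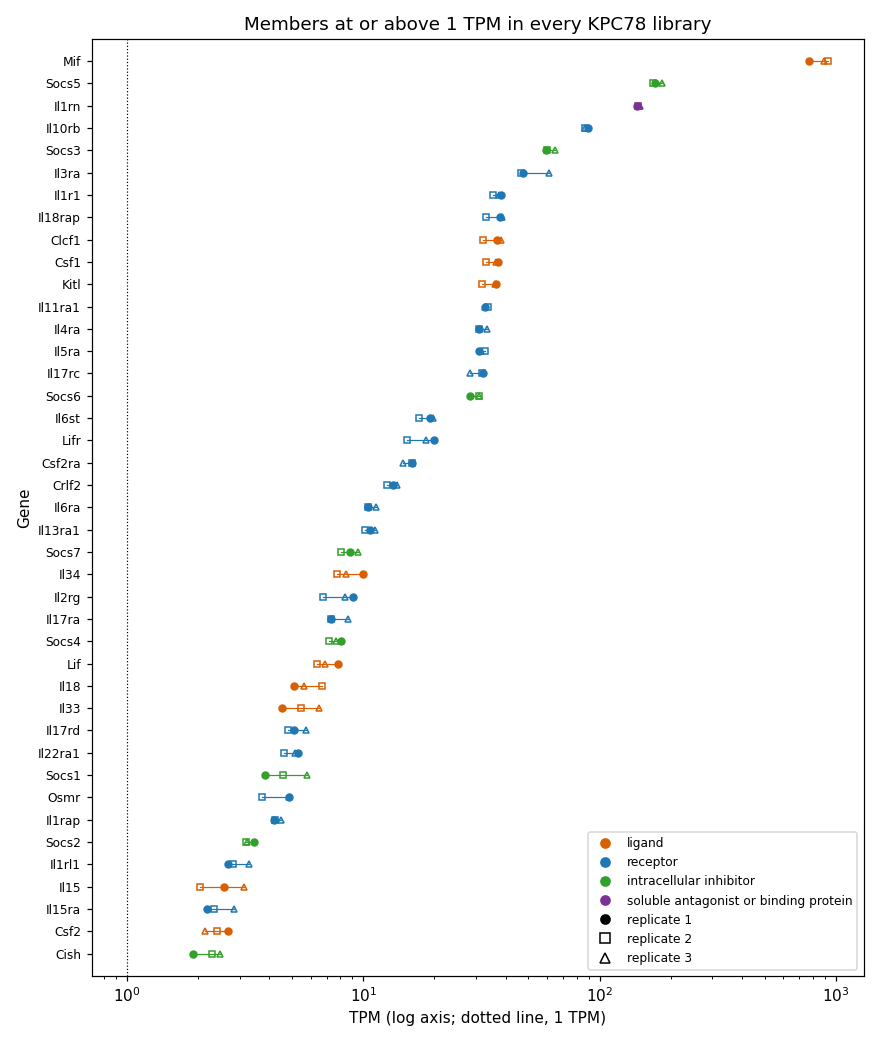
TPM of the 41 detected genes on a log axis, 1 row per gene in order of the mean, with a symbol per library, the range as a line and colour by class. Mif stands apart near 865 TPM, followed by Socs5 and Il1rn, and the symbols of a gene lie close together beside the span between genes.

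Just above the detection level were Cish at 2.23 TPM and Csf2 at 2.40 TPM in the mean. Just below it were Il18bp at 1.10 TPM, whose value passed 1 TPM in replicates 1 and 3 only, Il7 at 0.824 TPM, Il36g at 0.781 TPM and Il12rb1 at 0.763 TPM. The detected genes varied between libraries with a median coefficient of variation of 7.60%, against 6.33% for all detected symbols. When only means from 10 TPM upwards were kept, the order turned, with 5.05% for the genes described and 5.29% for all symbols. Socs1, Il15 and Il33 varied most, with coefficients of 20.9%, 20.9% and 18.2%. Of the 41 genes, 22 were lowest in replicate 2, or 53.7%, against 61.1% of all detected symbols.

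**Figure D2:**
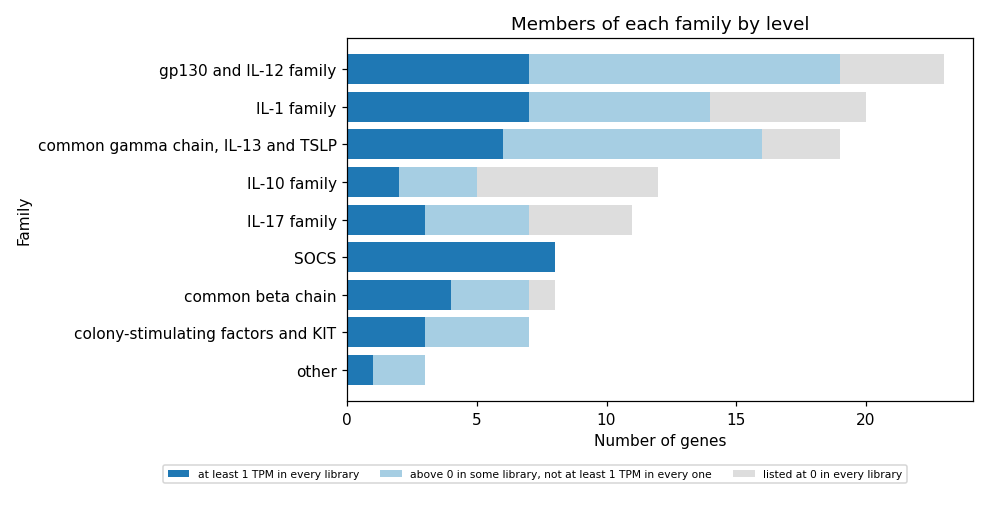
Number of genes in each family, split into those at or above 1 TPM in every library, those above 0 in some library but below that level, and those listed at 0 in every library. SOCS is the family with all 8 genes detected, and 7 of the 12 IL-10 family genes were listed at 0.

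The ligands were led by Mif, macrophage migration inhibitory factor, with 772, 929 and 894 TPM in replicates 1 to 3 (865 ± 82.6 TPM, SD, n = 3). Replicate 1 was the low one. Mif ranked 175th of all symbols by mean. Its gene lies on chromosome 10 from 75859353 to 75860240, minus strand (GENCODE M21, GRCm38), and its longest transcript has 600 bases. Of its 31-base words, 60.5% also occur in transcripts of 8 other genes, most often in C230062I16Rik, which stood at 0.0222 to 0.0996 TPM, so a split of reads between these genes by kallisto is possible. Of 5 genes of MIF receptor components, Cd44 reached 390 ± 11.9 TPM and Ackr3 54.5 ± 4.10 TPM (SD, n = 3). Cd74, the MIF-binding chain, stood at 0.738, 0.873 and 1.06 TPM and was not detected, nor were Cxcr2 and Cxcr4.

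Next came ligands for myeloid and stem cell receptors and for gp130. Csf1, which encodes M-CSF, the growth factor of macrophages, stood at 37.3, 33.2 and 36.5 TPM. Kitl, the ligand of KIT (stem cell factor), stood at 36.6, 31.8 and 36.1 TPM. Clcf1, a gp130 ligand, stood at 36.7, 32.0 and 38.4 TPM. These genes overlapped in their ranges, and each was lowest in replicate 2. Kitl was 0.977 ± 0.017 times Csf1 (SD, n = 3) and lower in 3 of 3 libraries, but no limma fit told these 2 genes apart. Their log2 ratio was -0.03 (95% confidence interval from -0.15 to 0.083; adjusted p from 0.45 to 1.00 over 11 fits, limma). Csf1 was 24.4 ± 3.64-fold (SD, n = 3) below Mif (highest adjusted p over 11 fits 0.0130, limma).

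Among the other myeloid growth factors, Il34, which encodes a further ligand of the M-CSF receptor, stood at 9.96, 7.74 and 8.43 TPM. Csf1 was 4.12 ± 0.33-fold above it, and no library of Il34 reached the range of Csf1 (highest adjusted p over 11 fits 0.0192, limma). Csf2, which encodes GM-CSF, stood at 2.67, 2.40 and 2.14 TPM and was 14.9 ± 1.80-fold below Csf1 (highest adjusted p over 11 fits 0.0126, limma). Of the exon bases of Csf2, 12% overlap the antisense gene Gm12223, and with no strand setting stated such reads cannot be told apart. Csf3, which encodes the neutrophil factor G-CSF, stood at 0.162, 0.212 and 0.178 TPM. Taken as log2(TPM + 1), which understates ratios to low genes, Csf2 exceeded Csf3 by 1.52. This ratio did not pass when the spread came from pairs of genes of like level (adjusted p = 0.072, limma). The 9 other fits, which it passed, share the error of 1 reference gene and are not independent support.

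The receptor genes Csf1r, Csf3r and Kit were near 0. Csf1r, the M-CSF receptor, stood at 0.0322, 0.00878 and 0 TPM, Csf3r at 0.0147, 0.0121 and 0.0152 TPM, and Kit was above 0 only in replicate 2, at 0.0108 TPM. The levels of Csf1r and Kit lay below those of their ligands Csf1 and Kitl in 3 of 3 libraries. The log2 ratio on the log2(TPM + 1) scale was 5.17 with a standard error of 0.073 for Csf1 to Csf1r and 5.16 with 0.094 for Kitl to Kit (highest adjusted p 0.0089 for each, limma). The size of a ratio to a gene near 0 depends on the value added. With 0.1 TPM added in place of 1 these ratios were 8.31 and 8.40, and with 5 TPM 3.02 and 2.99. Csf1r shares 14.6% of its 31-base words with Hmgxb3, a gene on the opposite strand that stood at 13.4 to 14.96 TPM.

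The common beta chain receptors, which bind IL-3, IL-5 and GM-CSF, had their private chains without the shared one. Il3ra, the IL-3 binding chain, stood at 47.6, 46.4 and 60.8 TPM, with replicate 3 above the others. Il5ra, the IL-5 binding chain, stood at 30.8, 32.9 and 31.5 TPM. Csf2ra, the GM-CSF binding chain, stood at 16.1, 16.1 and 14.8 TPM. Each of these was above the next in every library, and Csf2ra was 0.310 ± 0.058 times Il3ra. That ratio did not pass with the spread from pairs of like level (adjusted p = 0.28, limma). It passed in the 10 other fits, which share the error of 1 reference gene. Csf2rb, the signalling chain they share, stood at 0.00864, 0.0283 and 0.0271 TPM. Csf2rb2, its mouse relative specific to IL-3, was above 0 only in replicate 3, at 0.0114 TPM. Csf2rb shares 18.8% of its 31-base words with Csf2rb2, so reads can be split between them, but both levels were near 0. The log2 ratio of Csf2ra to Csf2rb was 4.03 with a standard error of 0.069 on the log2(TPM + 1) scale (highest adjusted p over 10 fits 0.0117, limma). With 0.1 or 5 TPM added in place of 1, that ratio was 7.03 or 2.04. The ligands Il3 and Il5 were not detected, and Il3 was listed at 0 in every library.

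**Figure D3:**
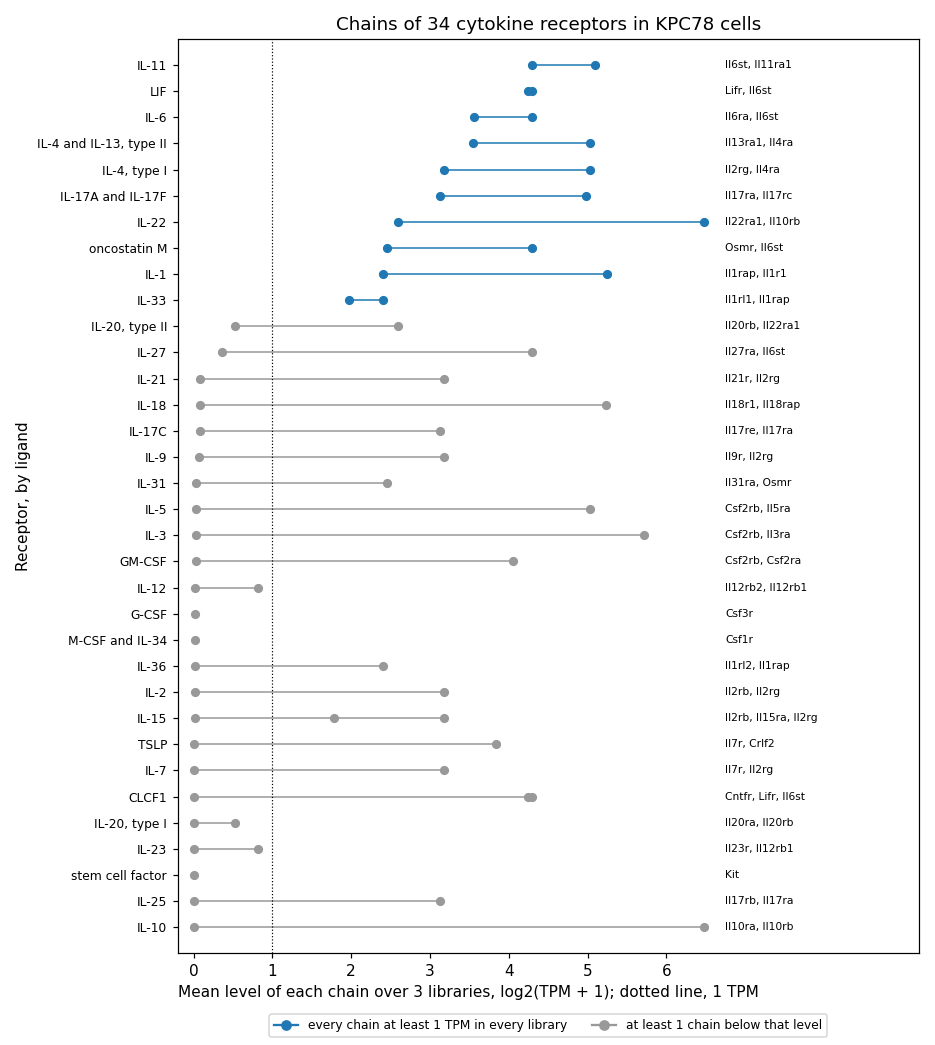
Mean level of each chain of 34 cytokine receptors as log2(TPM + 1), 1 row per receptor named by its ligand, with the chains named at the right from lowest to highest. Blue marks the 10 receptors with every chain detected, among which the IL-11, LIF and IL-6 receptors have the highest lowest chain, and grey marks the rest.

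Put together by receptor, every chain was detected for 10 of 34 receptors, some but not every chain for 18, and no chain for 6. No share over all genes exists for whole receptors. As single genes 22 of 49 receptor chains were detected, or 44.9%, against 32.6% of all symbols and 55.4% of protein-coding symbols. The 10 receptors were those for IL-1, IL-33, IL-6, IL-11, LIF, oncostatin M, IL-4 on its type I and type II receptors, IL-22, and IL-17A with IL-17F. They share chains and are not separate units. Those for IL-6, IL-11, LIF and oncostatin M share Il6st, those for IL-1 and IL-33 Il1rap, and both IL-4 receptors Il4ra. Of these 10, LIF and IL-33 also had a detected ligand gene. A ligand gene was detected without its full receptor for 6 receptors, those of IL-18, CLCF1, IL-15, GM-CSF, stem cell factor, and M-CSF with IL-34.

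In the gp130 family 5 receptor chains were detected. Il6st, which encodes gp130 itself, stood at 19.1, 17.3 and 19.7 TPM, and Lifr, the LIF-binding chain, at 19.9, 15.4 and 18.5 TPM. Their ranges overlapped, and the log2 ratio was 0.064 (95% confidence interval from -0.12 to 0.25; adjusted p from 0.17 to 1.00 over 11 fits, limma). Il11ra1, the IL-11 binding chain, stood at 32.7, 33.6 and 32.9 TPM, with a coefficient of variation of 1.49%, the lowest of the 41 genes. Il6ra, the IL-6 binding chain, stood at 10.5, 10.5 and 11.4 TPM, and Il11ra1 was 3.07 ± 0.16-fold above it (highest adjusted p over 11 fits 0.0192, limma). Osmr, the oncostatin M binding chain, stood at 4.84, 3.72 and 4.87 TPM, 4.22 ± 0.37-fold below Il6st (highest adjusted p over 11 fits 0.0244, limma). Il6st was 1.74 ± 0.092-fold above Il6ra and 0.566 ± 0.046 times Il11ra1. These last ratios had the same direction in 3 of 3 libraries but did not pass with the spread from pairs of like level (adjusted p = 0.14 and 0.21, limma). The 10 other fits, which they passed, share the error of 1 reference gene and are not independent support. Of the 31-base words of Il11ra1, 57.7% also occur in Gm13305, listed at 0 to 0.115 TPM, and its near copy Il11ra2 was listed at 0.

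The gp130 ligands were fewer. Lif stood at 7.80, 6.38 and 6.89 TPM, which was 0.197 ± 0.017 times Clcf1 (highest adjusted p over 11 fits 0.0192, limma). Lif was also 0.393 ± 0.021 times its receptor gene Lifr and lower in 3 of 3 libraries. This ratio did not pass with the spread from pairs of like level (adjusted p = 0.0503, limma). It passed in the 10 fits to a reference gene. Il6 stood at 0.103, 0.0708 and 0.0788 TPM and Il11 at 0.432, 0.298 and 0.457 TPM, and Osm was listed at 0. The log2 ratio of Lif to Il11 was 2.52 with a standard error of 0.12, and that of Il6 to Lif -2.88 with 0.078, both on the log2(TPM + 1) scale (highest adjusted p 0.0240 and 0.0192, limma). Cntfr, the private receptor chain of CLCF1, was above 0 only in replicate 3, at 0.0209 TPM. Cntf, another ligand of that chain, stood at 2.06 ± 0.23 TPM and Ctf1 at 0.174 ± 0.13 TPM (SD, n = 3).

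The remaining receptors of this family were mostly below 1 TPM. Il27ra stood at 0.183 to 0.354 TPM, Il12rb1 at 0.539 to 1.04 TPM, and Il12rb2, Il23r and Il31ra had means below 0.022 TPM. Of the IL-12 family ligands Il23a reached 0.0784 to 0.159 TPM, while Il12a and Il27 were listed at 0, Il12b was above 0 only in replicate 1 and Ebi3 only in replicate 2. Il12rb2 shares 38.6% of its 31-base words with Serbp1, a gene overlapping it on the opposite strand at 755 to 780 TPM.

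In the IL-1 family the antagonist was the most abundant gene. Il1rn, which encodes the IL-1 receptor antagonist, stood at 144, 146 and 149 TPM, with a coefficient of variation of 1.70%. Its gene lies on chromosome 2 from 24336853 to 24351494, plus strand. The agonist genes Il1a and Il1b were listed at 0 in every library, so no fold is given. Il1r1, the signalling IL-1 receptor, stood at 38.3, 35.5 and 37.5 TPM. Its accessory chain Il1rap, which is needed for signalling, stood at 4.21, 4.24 and 4.48 TPM, 8.61 ± 0.43-fold below Il1r1 (highest adjusted p over 11 fits 0.0089, limma). The decoy receptor gene Il1r2 stood at 0.367, 0.237 and 0.772 TPM, with a log2 ratio of Il1r1 to Il1r2 of 4.72 (standard error 0.098; highest adjusted p over 10 fits 0.0192, limma).

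Of the alarmins, Il33 stood at 4.53, 5.45 and 6.53 TPM, and its receptor chain Il1rl1, known as ST2, at 2.67, 2.81 and 3.30 TPM. Both genes were lowest in replicate 1 and highest in replicate 3. Il1r1 was 12.8 ± 1.502-fold above Il1rl1 (highest adjusted p over 11 fits 0.0130, limma). Il18 stood at 5.10, 6.70 and 5.64 TPM, and Il18bp, which encodes its soluble inhibitor, at 1.68, 0.607 and 1.01 TPM. Il18 was the higher in 3 of 3 libraries, with a log2 ratio of 1.72 that ranged in adjusted p up to 1.00 over 11 limma fits. Il18rap, the accessory chain of the IL-18 receptor, stood at 37.8, 33.003 and 38.7 TPM. Il18r1, the chain that binds IL-18, stood at 0.104, 0.0227 and 0.0375 TPM. Il18rap shared 0.327% of its 31-base words with other genes. The IL-36 ligand Il36g stood at 0.576 to 0.977 TPM, and its receptor Il1rl2 at or below 0.0206 TPM.

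**Figure D4:**
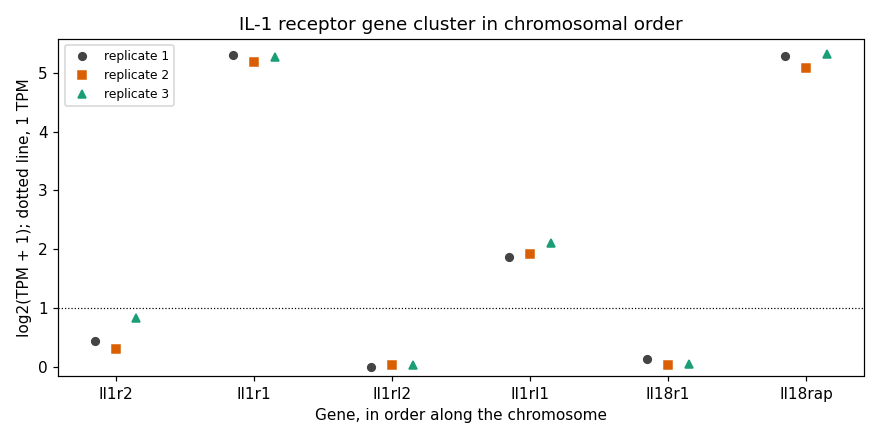
Level of 6 IL-1 receptor family genes as log2(TPM + 1) in each library, in their order along chromosome 1. Il1r1, Il1rl1 and Il18rap lie above the line at 1 TPM in every library, and the neighbour before each of them lies below it.

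These receptor genes neighbour each other on the plus strand of chromosome 1, from Il1r2, which starts at 40074079, to Il18rap, which ends at 40551705 (GENCODE M21, GRCm38). Detected and undetected genes alternated along the cluster. Il18r1 ends at 40500854 and Il18rap starts at 40515362, and the mean levels of this adjacent pair were 0.0546 and 36.5 TPM. On the log2(TPM + 1) scale Il1r1 exceeded Il18r1 by 5.17 (highest adjusted p over 10 fits 0.0080, limma). With 0.1 or 5 TPM added in place of 1, the excess was 7.94 or 3.06.

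Of 15 listed genes of the IL-1 and IL-17 pathways, which include adaptors, kinases, inhibitors and inflammasome genes, 14 were detected. Irak1, a kinase of the IL-1 pathway, stood at 46.9 ± 4.62 TPM, Sigirr, an inhibitory receptor of the family, at 45.2 ± 2.25 TPM, Map3k7 (TAK1) at 42.3 ± 1.51 TPM and Tab2 at 38.2 ± 3.35 TPM (SD, n = 3). The adaptor gene Myd88 reached 15.01 ± 0.88 TPM, and Casp1, the protease that matures IL-1 beta and IL-18, 19.5 ± 1.34 TPM (SD, n = 3). Nlrp3, an inflammasome sensor, was the exception at 0.0518 to 0.245 TPM.

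Receptors of the common gamma chain and IL-13 group were detected for 5 of 11 genes. Il4ra, the IL-4 binding chain, stood at 30.9, 31.02 and 33.4 TPM and Il13ra1, its partner for IL-13, at 10.7, 10.1 and 11.2 TPM. Il4ra was 2.98 ± 0.081-fold above Il13ra1, with no overlap of the ranges (highest adjusted p over 11 fits 0.0126, limma). Il2rg, the common gamma chain, stood at 9.05, 6.76 and 8.34 TPM, and 28.7% of its 31-base words also occur in Gm20489. Il4ra was 4.002 ± 0.59-fold above Il2rg and higher in 3 of 3 libraries. This ratio did not pass with the spread from pairs of like level (adjusted p = 0.076, limma). It passed in the 10 fits to a reference gene. Il15ra stood at 2.18, 2.34 and 2.84 TPM, while Il2rb, the signalling chain for IL-2 and IL-15, was above 0 only in replicate 1, at 0.0395 TPM. The IL-13 decoy receptor gene Il13ra2 was listed at 0.

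Crlf2, the TSLP-binding chain, stood at 13.3, 12.6 and 14.0 TPM, and its partner Il7r was above 0 only in replicate 2, at 0.0219 TPM (log2 ratio of Il7r to Crlf2 -3.82, highest adjusted p over 11 fits 0.0126, limma). Tslp, the ligand of that pair, stood at 0, 0.103 and 0.0769 TPM. Of the 8 ligands of the group, Il15 was the detected one, at 2.57, 2.05 and 3.12 TPM. It could not be told apart from Il15ra (log2 ratio 0.046, 95% confidence interval from -0.27 to 0.36; adjusted p from 0.49 to 1.00 over 11 fits, limma). Il7 stood at 0.887, 0.839 and 0.747 TPM. Il4, Il13 and Il2 were listed at 0 or stood below 0.1 TPM in every library.

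Il10rb, the chain shared by the IL-10 and IL-22 receptors, was the most abundant receptor gene, at 89.5, 87.1 and 87.0 TPM, with a coefficient of variation of 1.59%. Of its 31-base words 14.2% also occur in Gm21970, which was listed at or near 0. Its IL-10 partner Il10ra was listed at 0 in every library. Its IL-22 partner Il22ra1 stood at 5.32, 4.64 and 5.16 TPM, 17.5 ± 1.12-fold below Il10rb (highest adjusted p over 11 fits 0.0080, limma). Il20rb stood at 0.447, 0.460 and 0.430 TPM. None of the 6 IL-10 family ligands was detected, and 5 of them, Il10 and Il22 included, were listed at 0.

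In the IL-17 family Il17rc stood at 32.1, 31.7 and 28.3 TPM and its partner Il17ra, shared by the family, at 7.32, 7.32 and 8.62 TPM. Il17ra was 0.255 ± 0.044 times Il17rc and lower in 3 of 3 libraries. This ratio did not pass with the spread from pairs of like level (adjusted p = 0.11, limma). It passed in the 10 fits to a reference gene. Il17rd, also known as Sef, an inhibitor of FGF signalling, stood at 5.12, 4.80 and 5.70 TPM. Il17rb, the IL-25 chain, was listed at 0, and Il17re, the IL-17C chain, stood at 0.0326 to 0.0889 TPM. None of the 6 ligands was detected. Il17b was the highest of them at 0.552 ± 0.17 TPM (SD, n = 3), and Il17a, Il17c and Il25 were listed at 0.

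Downstream of the JAK-linked receptors, 16 of 17 genes of the JAK, STAT, PIAS and SHP group were detected. Jak1, the kinase bound to gp130, stood at 53.1 ± 3.44 TPM, Ptpn11 (SHP2) at 51.3 ± 2.40 TPM, Stat6, the factor of IL-4 signals, at 50.02 ± 0.56 TPM and Pias2 at 44.0 ± 1.59 TPM (SD, n = 3). Stat3, the main factor of gp130 signals, followed at 43.0 ± 1.14 TPM (SD, n = 3). Stat4, the factor of IL-12 signals, was above 0 only in replicate 1, at 0.0160 TPM.

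The SOCS family was detected in full and spanned from 2.23 to 174 TPM in the mean, with a sum of 293 ± 13.4 TPM (SD, n = 3). Socs5 was the most abundant, at 171, 169 and 184 TPM. Socs3, the inhibitor that binds gp130, stood at 59.1, 60.2 and 65.0 TPM. Socs6, which is known to act on receptor tyrosine kinases, stood at 28.4, 30.8 and 30.8 TPM. Socs7 and Socs4 stood at 8.76 ± 0.73 and 7.64 ± 0.46 TPM (SD, n = 3). Socs5 was 22.9 ± 1.51-fold above its closest relative Socs4 (highest adjusted p over 11 fits 0.0080, limma).

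The members best known as STAT-induced inhibitors of cytokine receptors, other than Socs3, were the lowest. Socs1, which blocks interferon receptor kinases, stood at 3.83, 4.57 and 5.79 TPM. Socs2, an inhibitor of growth hormone signals, stood at 3.47, 3.19 and 3.23 TPM, and Cish, the founding member, at 1.91, 2.30 and 2.48 TPM. Replicate 3 was the highest for Socs1 and Cish and not for Socs2. Socs3 was 13.3 ± 2.10-fold above Socs1, 18.7 ± 1.53-fold above Socs2 and 27.8 ± 2.77-fold above Cish (highest adjusted p over 11 fits 0.0172, 0.0089 and 0.0080, limma). Socs2 was 1.501 ± 0.28-fold above Cish and higher in 3 of 3 libraries. This ratio passed in 9 of 11 limma fits, and those 9 share the error of 1 reference gene. Its adjusted p was 0.072 without replicate 1 and 1.00 with the spread from pairs of like level.

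**Figure D5:**
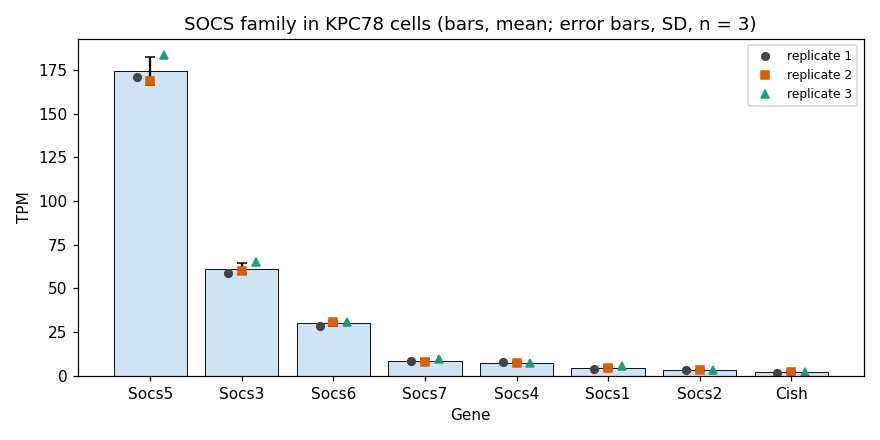
TPM of the 8 SOCS family genes, with bars for the mean, error bars for the SD (n = 3) and a symbol per library. Socs5, Socs3 and Socs6 stand above the other genes in every library, and the axis starts at 0.

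The promoter windows printed above differ in these features. TTCNNNGAA was found in 11 of 95 windows of the genes described. Cish held TTCCTGGAA from position 0 and TTCTTGGAA from position 11, counted from the annotated start. Socs3 held it once, TTCTTAGAA from position -154. The motif reads the same on both strands, and 8.30% of all 32851 promoter windows held it, against 11.6% of the 95. The other 9 windows with a match belonged to undetected genes, and Il18r1 among them held 2 matches. Of the SOCS family, 4 genes had a window, and Socs1 and Socs4 held no match. A match in these letters is a description and not a binding site.

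CG dinucleotides, which are dense in the promoters of many broadly expressed genes, were counted in the window with the most of them for each of 79 genes. The median was 15.5 for the 32 detected genes and 4 for the 47 others. For protein-coding symbols of the table it was 23 for 8734 detected and 5 for 6465 undetected genes. Il3ra held 35 CG dinucleotides and Socs3 31. Il5ra and Il18rap, both detected above 30 TPM, held 4 each, as many as the median undetected gene. Low counts were common among the detected genes. At least 15 were held by 17 of the 32, or 53.1%, against 78.5% of detected protein-coding symbols. Il1rn, at 146 TPM in the mean, held at most 5 in any window. No exon of Il5ra or Il18rap overlaps another annotated gene in GENCODE M21, and Il5ra shared 4.30% of its 31-base words with other genes.

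Of 66 gene pairs listed, 49 could be tested, and limma called 46 of them at an adjusted p of 0.05, read against 93.8% of all gene-to-reference ratios in the same fits. With a spread taken from pairs of genes of like level, 33 of the 49 passed, against 0.312% of all 10571 ratios in that fit. Those 33 were the only calls in it, since the other ratios set genes of near-equal level side by side and are no measure of what distant genes give. Ratios to 1 reference gene share that gene's error, so p-values of the first fit are too small. The highest over the fits is given for pairs that passed in each, and a range or single fits for the others. These p-values measure the spread between 3 libraries, which may be technical, and leave out any bias of one gene's TPM against another's.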

How the data were processed

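Polyadenylated RNA of 3 KPC78 libraries was sequenced, per the labels' protocols. The authors deposited TPM per gene symbol, and the file's own sheet name credits kallisto. Tools in the submitters' processing notes are kallisto 0.44.0 and bcl2fastq 2.19, with build GRCm38.p6. The annotation release was not given in the sources used here, nor were the strand setting and the summing to genes. TPM keeps no depth, so no counting intervals are given. A second short sheet, with 3 value columns and no cytokine network gene, was not used.

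Columns were matched by library name. Detection means at least 1 TPM in every library. For each gene pair the log2 ratio of (TPM + 1) was taken within a library and tested with limma 3.58.1 (R 4.3.3; two-sided, variance trend). Each of 26 reference genes had its own fit over all symbols above 0, with Benjamini-Hochberg adjustment inside it. A pair was left untested where both genes averaged under 1 TPM or a partner was listed at 0. The resulting p-values were implausibly small for 3 libraries, so a fit chosen after seeing the data was added. It took the spread from disjoint pairs of symbols adjacent in mean level. The 11 fits are the first, 9 variations of it and the added one. Standard errors are those of the first fit, and for pairs not told apart the wider interval of the first and added fits is given. An exact sign-flip test cannot go below p = 0.25 here. Simulated ratios served to check the script.

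GENCODE M21 (GRCm38) gave positions for 106 of 111 symbols and the shared 31-base words, counted on both strands. The word length was chosen here, not taken from the authors. RefSeq windows were available for 79 genes. Named were detected genes, genes of described pairs, the 5 highest undetected genes, and up to 4 leading genes per list. Other genes were named after their values were seen. Some genes that the rule names are not reported here. The members, lists and pairs were chosen with earlier results of these data known. The classes, the 34 receptor compositions, the 5 printed windows and the choice of the window with most CG were set after the TPM values had been seen. Python 3.11.15 and pandas 2.3.3 were used.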

Additional observations from a re-analysis of the deposited data

How the results depend on the processing

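No paired analysis was possible because there was 1 group only, and ratios were taken within a library. The number of detected genes was 41 in the main count and 46, 29 and 42 with a minimum of 0.5 TPM, with a minimum of 5 TPM and with the mean in place of every library. It was 42 after rescaling TPM without mitochondrial and ribosomal protein genes, which raised levels by 1.36 to 1.38 times, and 41 to 42 without any 1 replicate. Of 49 tested pairs 46 passed with pseudocounts of 0.1 and 5 TPM and without a variance trend. The count was 32 of 35 with low genes left out, 54 of 57 with no filter, 47 of 50 after rescaling, and 44 to 46 without any 1 replicate. Fewer pairs enter where low genes are left out. No direction changed with the pseudocount, but the size of ratios to genes near 0 did. The log2 ratio of Il6 to Lif, for example, was -5.27 with 0.1 TPM and -1.24 with 5 TPM. With the spread from pairs of like level, a fit chosen after seeing the data, 33 passed and 13 calls were lost. That fit uses the same ratios with another spread, so no direction could change. The ratio of Il15 to Il15ra, which no fit called, turned from 0.046 to -0.014 without replicate 1, and lay between -0.014 and 0.134 over the 3 fits that left out a replicate. The cause was not tested. That replicate also ended the call of Socs2 over Cish. Read depth is unknown, so for genes near 0 the limit of detection cannot be given.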

Other observations

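Further chromosomal clusters of several of these genes stood near 0 together, where 70 of all 111 genes were undetected. Neighbouring pairs were not taken as clusters, and some were mixed. On chromosome 11, Osm and Il3 were listed at 0 beside Lif and Csf2, detected at 7.02 and 2.40 TPM in the mean. Il4, Il13 and Il5, which lie near each other on chromosome 11 and encode type 2 cytokines, had means of 0.0311, 0 and 0.0518 TPM. Il24, Il20, Il19 and Il10, near each other on chromosome 1, were listed at 0 except Il19, at 0.0146 TPM in the mean. Csf2rb2, Csf2rb and Il2rb, near each other on chromosome 15, had means of 0.00381, 0.0213 and 0.0132 TPM.

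Il4i1, which depletes amino acids in inflamed tissue, stood at 0.234, 0.218 and 0.953 TPM, with replicate 3 above the others. Of its 31-base words 78.9% also occur in Tbc1d17, an overlapping gene on the opposite strand at 38.0 to 46.7 TPM. With no strand setting stated, reads in these words cannot be told apart. Nup62, on the same strand, overlaps 97 exon bases of Il4i1 and stood at 38.5 to 42.7 TPM.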
